A study of Rattus norvegicus with 2 samples.

Results

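The genes described here belong to the ATF4 branch of the integrated stress response. A member was any of 10 named genes (Trib3, Ddit3, Atf4, Atf3, Chac1, Asns, Psat1, Ppp1r15a, Sesn2 and Cebpb) with a non-control microarray probe, present on both arrays, that carries a RefSeq mRNA accession of that gene. Of these, 9 had such a probe, among 13888 genes named through an accession in all, and Chac1 had none. Each of the 9 was represented by 1 probe with 1 spot per array, and each was well above background on both arrays, as were 10028 of the 13888 genes. Total RNA came from neural stem cells grown from the hippocampus of Sprague-Dawley rats at postnatal day 3 and used at the third passage. The treated group was 1 array of cells under 2.4% sevoflurane, an inhaled general anaesthetic, for 6 h; the control group was 1 array of cells under 0% sevoflurane for the same time. Per the treatment protocol, cells then spent 24 h in an ordinary incubator at 5% CO2, but other labels name only 6 h, so the time of harvest is uncertain. No allele or second agent is named for either group. No label says whether an array holds 1 culture or a pool. With 1 array per group no difference below has a replicate check or a p-value.

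In the integrated stress response, kinases that sense unfolded protein, amino acid shortage, double-stranded RNA or haem shortage phosphorylate the alpha subunit of the initiation factor eIF2. General translation then slows while the messenger of the transcription factor ATF4 is translated better, so ATF4 protein can increase with little change in its mRNA. ATF4, often as a dimer with C/EBP proteins, switches on genes of amino acid supply, further transcription factors such as CHOP, and the phosphatase subunit GADD34 that reverses the phosphorylation.

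Promoter sequence is shown first for members that held 1 of the searched motifs, because the composite site bound by ATF4 with a C/EBP partner is the classical mark of this pathway. RefSeq promoters of build GRCr8, from 250 bases before to 50 bases after the annotated start, were found for 9 of the 10 genes, all but Atf3. The composite site was searched as TGATGNAA on both strands, and capitals below mark every motif hit. Each line gives 100 bases, 5′ to 3′ on the gene's own strand. Trib3 lies at chr3:161275534-161275633 on the minus strand and Chac1 at chr3:126795931-126796030 on the plus strand, and in these lines the capitals are the composite site on the opposite strand.
Trib3: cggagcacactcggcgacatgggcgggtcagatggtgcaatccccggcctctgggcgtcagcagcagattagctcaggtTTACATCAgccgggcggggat
Chac1: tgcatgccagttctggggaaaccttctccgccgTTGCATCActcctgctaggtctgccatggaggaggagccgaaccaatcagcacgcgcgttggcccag

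The composite letters occurred in 2 of the 9 promoters, Trib3 (bases -21 to -14 from the start) and Chac1 (bases -167 to -160), and in 3.98% of all 33469 promoters in the table. The cyclic AMP response element, searched as TGACGTCA, was in 1 of the 9, Ppp1r15a (-66 to -59), and in 1.83% of all promoters. The antioxidant response element, searched as TGACNNNGC, was in 3 of the 9 (Ppp1r15a, Sesn2 and Cebpb) and in 12.1% of all. TATAAA was in 4 of the 9 (Trib3, Atf4, Ppp1r15a and Cebpb) and in 14.2% of all. The XBP1 and ATF6 core TGACGTGG and the ER stress element (CCAAT and CCACG, 9 bases apart) were in 0 of the 9, and in 0.59% and 0.066% of all promoters. The pattern of the antioxidant element can share letters with the XBP1 core, but no hits of different motifs overlapped in the 9 promoters. The next lines show Ppp1r15a (chr1:105139597-105139696, minus strand), Sesn2 (chr5:150005256-150005355, minus strand), Cebpb (chr3:176816905-176817004, plus strand) and, as a member with only TATA letters, Atf4 (chr7:113684581-113684680, plus strand); in each the last base is base -1.
Ppp1r15a: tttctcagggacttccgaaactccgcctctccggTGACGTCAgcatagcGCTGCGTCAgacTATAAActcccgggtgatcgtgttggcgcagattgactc
Sesn2: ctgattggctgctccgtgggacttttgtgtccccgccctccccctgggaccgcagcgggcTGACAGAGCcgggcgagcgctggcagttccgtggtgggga
Cebpb: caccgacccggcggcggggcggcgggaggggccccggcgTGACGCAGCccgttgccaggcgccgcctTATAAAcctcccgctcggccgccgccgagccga
Atf4: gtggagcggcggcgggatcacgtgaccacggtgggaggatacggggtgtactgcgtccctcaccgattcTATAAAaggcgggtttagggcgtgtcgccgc

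In Ppp1r15a the capitals mark, in order, the cyclic AMP response element, the antioxidant element on the opposite strand and TATAAA. In Cebpb the antioxidant element stands before TATAAA, in Sesn2 it stands alone, and in Atf4 only TATAAA is marked. The windows of Ddit3, Asns and Psat1 held none of the 6 motifs, which says only that these letters are not in this window.

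**Figure D1:**
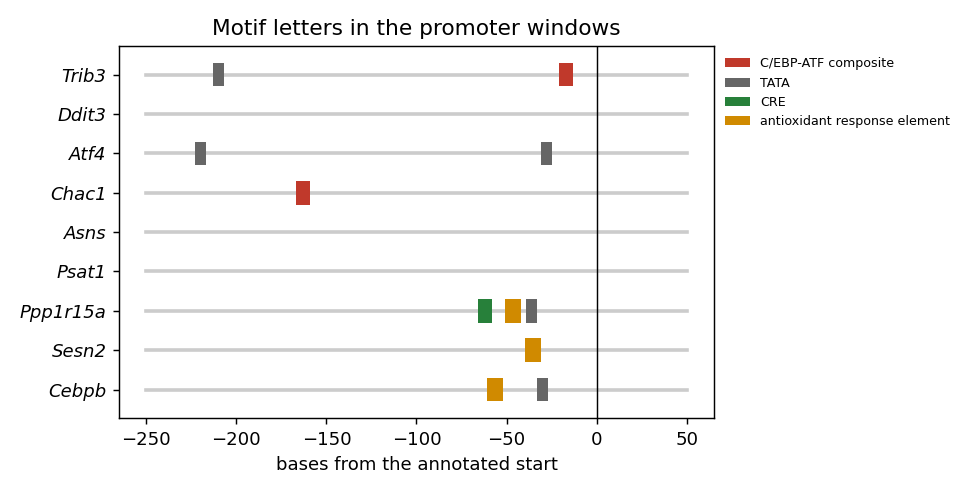
Positions of motif letters in the promoters of 9 genes, in bases from the annotated start (0, vertical line); grey bars span the 300 bases searched and coloured blocks are hits on either strand. The composite site appears only in Trib3 and Chac1, and Ppp1r15a holds 3 different motifs between -66 and -34.

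Of the 9 measured genes, 6 were at least 2-fold higher on the sevoflurane array and 0 were at least 2-fold lower. Over all 10028 measured genes, 27.9% were at least 2-fold higher and 11.5% at least 2-fold lower. The 6 were Trib3, Cebpb, Ppp1r15a, Ddit3, Sesn2 and Asns, with differences between 2.52 and 4.85 log2 units, and the 9 genes had a median of 2.56 against 0.25 over all measured genes. Atf4, Atf3 and Psat1 were within 2-fold, at 0.53 to 0.96. Differences are sevoflurane minus control, in log2 units, after each array was scaled to its 75th percentile.

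The overall share depended strongly on scaling, while the count for the 9 genes hardly did. After an intensity-dependent (loess) correction the 9 genes again had 6 higher and 0 lower, where 14% of all measured genes were higher and 17.4% lower. After quantile normalization, which gives both arrays the same distribution, the count was again 6 and 0, with 13.6% of all measured genes higher and 19.6% lower. All measured genes together had a median of 0.25 with the 75th percentile, of -0.06 after the loess correction, of -0.10 after quantile normalization and of -0.84 when the arrays were set to the same median over all probes. Single genes are best compared with these medians.

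**Figure D2:**
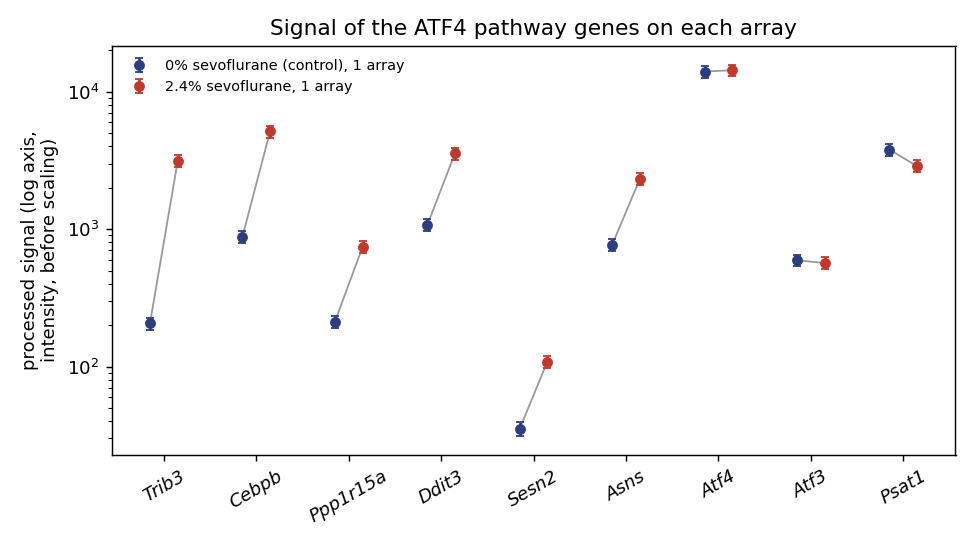
Processed signal before scaling (intensity, log axis) of the 9 measured genes on the control array and the sevoflurane array; bars are the scanner software's own error of the single spot. Trib3, Cebpb, Ppp1r15a, Ddit3, Sesn2 and Asns have the higher signal under sevoflurane even before scaling, whereas Atf4 and Atf3 are close on both arrays and Psat1 is lower under sevoflurane.

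Among the transcription factors, Atf4 itself, the hub of the pathway, had a processed signal of 14335 ± 1433 under sevoflurane and 14002 ± 1400 in the control (± the error given by the scanner software for 1 spot). The unscaled signals therefore differed by 0.03 log2 units, less than that error. Scaling turned this into 0.96 ± 0.20, just under 2-fold, where the median of the brightest of 10 equal groups of genes by level was 0.12. It was 0.78 after the loess correction, 0.40 after quantile normalization and -0.12 after median scaling, which moves all genes alike and takes their median from 0.25 to -0.84, so that Atf4 was 0.71 above that median in both.

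Ddit3 encodes CHOP, a C/EBP relative that ATF4 induces and that promotes cell death under lasting stress. Its signal was 3566 ± 357 under sevoflurane and 1069 ± 107 in the control. The sevoflurane signal was the higher one before any scaling, and the scaled difference was 2.67 ± 0.20, or 6.36-fold, which ranked 503 of 10028 genes. Cebpb encodes C/EBP beta, a dimer partner of ATF4 and CHOP with roles in inflammation. It had 5156 ± 516 against 879 ± 87.9, a difference of 3.48 ± 0.20 (11.2-fold, rank 198). Both genes fell in level group 9 of 10, where the median gene differed by -0.15, so both stood well above genes of like brightness.

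Atf3 encodes a stress-induced repressor that follows ATF4 and also answers to other stress signals. It had 566 ± 56.7 under sevoflurane and 594 ± 59.4 in the control, which differ by less than the software's error. The scaled difference was 0.86 ± 0.20 (rank 3105), against a median of -0.05 in its level group, and it was -0.23 after median scaling (0.61 above the median of all genes in both). Atf3 was within 2-fold in all 12 ways of processing, unlike Ddit3 and Cebpb.

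Trib3 encodes a pseudokinase, induced by ATF4 and CHOP, that binds ATF4 and the kinase AKT. Under sevoflurane its processed signal was 3124 ± 312, in the control 206 ± 20.7. It had the highest difference of the 9 genes, 4.85 ± 0.20 log2 units or 28.9-fold, and ranked 63 of 10028 genes and 8 of 1003 in its level group, whose median was -0.16. The value stayed between 3.76 and 5.00 in all 12 ways of processing. Its promoter is 1 of those that hold the composite site printed above.

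Ppp1r15a encodes GADD34, the stress-induced subunit that directs protein phosphatase 1 to eIF2 alpha and closes the feedback loop. It had 741 ± 74.1 against 211 ± 21.2, a difference of 2.74 ± 0.20 (6.68-fold, rank 468), with a median of -0.05 in its level group. Ppp1r15b, its constitutive counterpart, was at 0.54 (signals 965 and 1263), within 2-fold. The catalytic subunits of protein phosphatase 1 were at 0.12 (Ppp1ca), -0.31 (Ppp1cb) and -0.55 (Ppp1cc).

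The metabolic members differed from each other. Asns encodes asparagine synthetase, which makes asparagine from aspartate. Its signal was 2314 ± 231 under sevoflurane and 769 ± 76.9 in the control, a difference of 2.52 ± 0.20 (5.74-fold, rank 599) where genes of its level group had a median of -0.14. Psat1 encodes the aminotransferase of the serine pathway. Its signal was lower under sevoflurane before scaling, at 2871 ± 287 against 3793 ± 379. After scaling it was at 0.53 ± 0.20 (rank 4018), against 0.12 in its level group, and it was -0.56 after median scaling (0.28 above the median of all genes in both).

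Sesn2 encodes sestrin 2, which restrains the growth kinase complex mTORC1 and is also a target of p53 and NRF2. It was the dimmest spot relative to its surroundings: its raw signal was 8.75 times its local background under sevoflurane and 3.06 times in the control. The processed signals were 109 ± 11.1 and 35.3 ± 4.01, a difference of 2.56 ± 0.22 (5.88-fold, rank 572). In its level group the median gene already differed by 0.61, and Sesn2 was at 1.72 after the loess correction, 1.65 after quantile normalization and 1.75 after normexp background correction, still at least 2-fold. Of the 6 higher genes it therefore moved most with the correction for level.

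Chac1, whose product degrades glutathione, has no value here, and its promoter above is a description of sequence only. The order of the differences was Trib3, Cebpb, Ppp1r15a, Ddit3, Sesn2, Asns, Atf4, Atf3 and Psat1. The 4 genes from Ppp1r15a to Asns lay within about the single-spot error of each other, with gaps of 0.07, 0.11 and 0.04, and so did Atf4 and Atf3, with a gap of 0.10. Larger gaps separated Trib3 from Cebpb (1.37), Cebpb from Ppp1r15a (0.74) and Asns from Atf4 (1.56). Order and gaps differed after the loess correction and after quantile normalization. Quantile normalization put Atf4 last, at 0.40 against 0.57 for Psat1 and 0.89 for Atf3. The loess correction put Atf4 at 0.78 against 0.99 for Atf3, and Sesn2 at 1.72 against 2.65 for Asns.

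**Figure D3:**
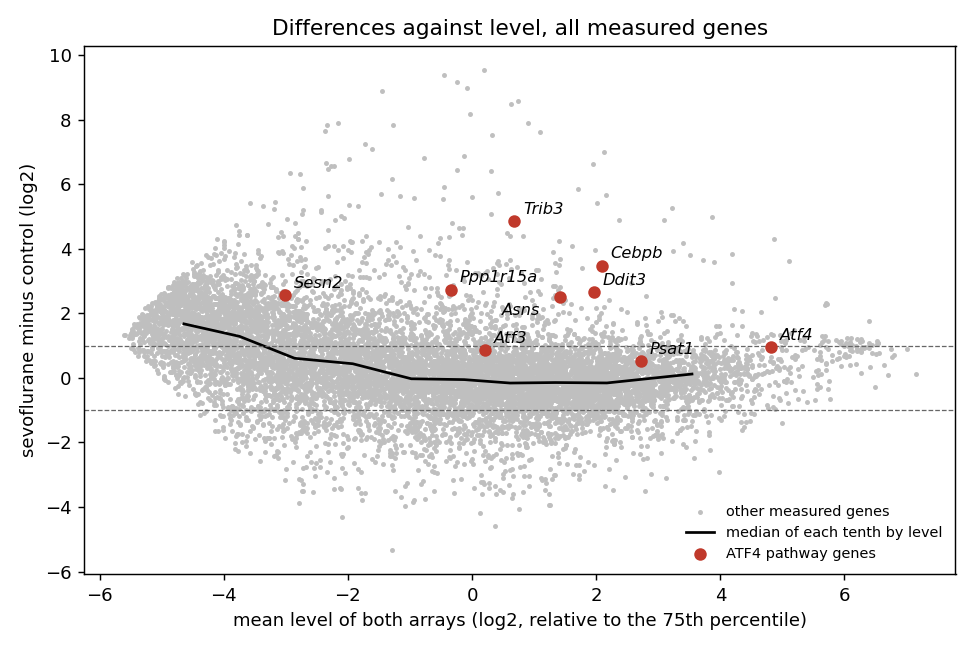
Difference (sevoflurane minus control, log2) against mean level of both arrays (log2 relative to the 75th percentile) for 10028 measured genes, with the 9 pathway genes in red; the black line joins the medians of 10 groups of genes by level and dashed lines mark 2-fold. Dim genes lie above 0 as a body, and 6 red points stand above the upper dashed line, of which Sesn2 is nearest to the dim body.

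**Figure D4:**
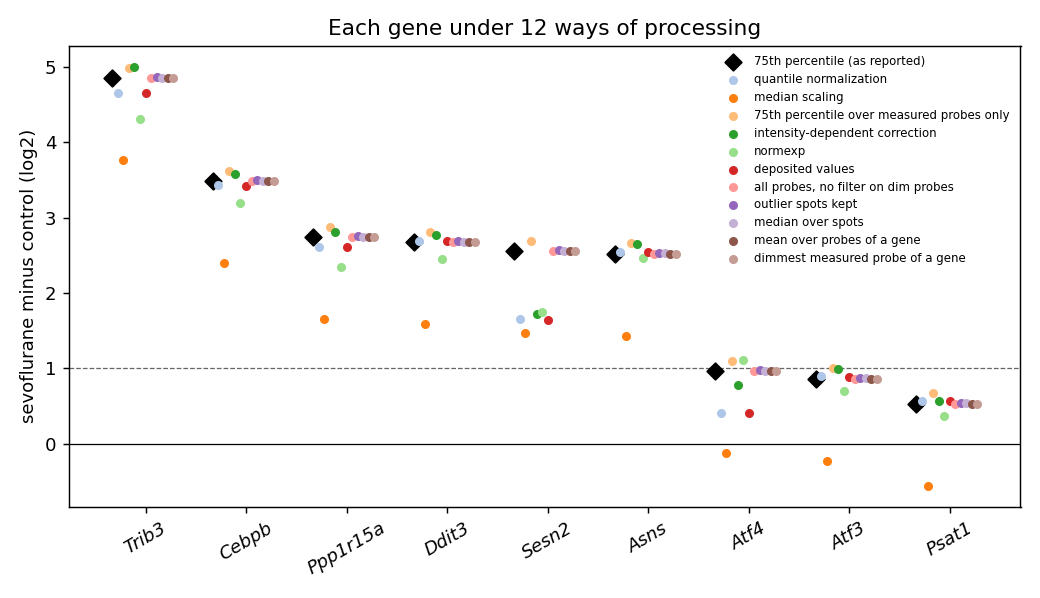
Difference (sevoflurane minus control, log2) of each gene under 12 ways of processing; black diamonds are the values reported, the dashed line is 2-fold. The 6 genes on the left stay above 2-fold under each of the 12, while Atf4, Atf3 and Psat1 lie around or below it and change sign under median scaling, which moves all genes alike. Settings of dim probes, outlier spots, spot averaging and probe choice cannot separate genes that have 1 probe with 1 unflagged spot.

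Every member rests on 1 spot per array, so the error given above is that of the scanner software, between 0.20 and 0.22 log2 units for a difference. As a check on it, repeat spots of other probes had a median SD of 0.088 (sevoflurane) and 0.068 (control). The 90th percentiles of that SD were 0.23 and 0.21. Of the RefSeq mRNA probes that name a gene, 99.7% had 1 spot, so the repeats were mostly of other kinds of probe than the members. For 237 genes with at least 2 measured probes, the difference varied between probes with a median SD of 0.11, but in the widest 10% of them by 1.05 or more. Spots within 10 rows and columns of each member differed from the whole array's median by -0.13 to 0.21, small beside the 6 higher differences. All these errors are technical and leave out the spread between cultures.

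Of the 162 other genes listed for the pathway and its neighbours, 128 were measured, 39 of them at least 2-fold higher and 3 at least 2-fold lower, beside the 27.9% and 11.5% of all measured genes. Their median was 0.59 against 0.25 over all measured genes. After the loess correction 33 of the 39 were still at least 2-fold higher, and all 3 of the lower ones were still lower. Of all 128, 35 were then higher and 4 lower, beside 14.0% and 17.4% of all measured genes. After quantile normalization 32 were higher and 5 lower, beside 13.6% and 19.6%. Under median scaling the counts were 12 higher and 37 lower, where 10.4% of all measured genes were higher and 43.7% lower.

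The sensors and the core machinery stayed within 2-fold. Of 14 listed genes for eIF2 kinases, eIF2 and eIF2B, the exchange factor of eIF2, 10 were measured, with 0 higher, 0 lower and a median of 0.24. All measured genes had 27.9% higher and 11.5% lower. The kinase genes were at 0.30 for Eif2ak1 (HRI, the haem-regulated kinase), 0.80 for Eif2ak2 (PKR, which binds double-stranded RNA) and -0.78 for Eif2ak3 (PERK, the kinase of the endoplasmic reticulum). Eif2ak4, which encodes the amino acid sensor GCN2, was not well above background on either array. The eIF2 subunit genes were at 0.31 (Eif2s1, the alpha subunit), 0.63 (Eif2s2) and -0.72 (Eif2s3). The eIF2B subunit genes were at 0.17 (Eif2b1), 0.73 (Eif2b2), -0.36 (Eif2b4) and -0.12 (Eif2b5). Under median scaling all 10 were below 0, with 4 at least 2-fold lower.

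The group around the phosphatase had a median of -0.05. In it 1 of 7 genes was at least 2-fold higher and 0 were lower, beside 27.9% and 11.5% of all measured genes. The exception was Dnajc3, whose product p58IPK inhibits PERK and PKR. Its signal was 1062 under sevoflurane and 467 in the control, a difference of 2.12 (2.26 after the loess correction). The adaptor genes Nck1 and Nck2 were at -0.05 and -0.86.

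Other bZIP factors, the leucine zipper family to which ATF4 belongs, had 7 of 17 measured genes higher and 0 lower (4 higher and 1 lower after the loess correction). Beside them, 27.9% of all measured genes were higher and 11.5% lower, or 14.0% and 17.4% after the correction. Atf5, a close relative that is itself an ATF4 target, was at 2.57 (signals 609 and 195; 2.61 after the correction). Nfe2l2, which encodes NRF2, the main antioxidant regulator, was at 2.68 (signals 1929 and 573; 2.83 after the correction). Atf7 was at 2.32 (1.44 after the correction) and Jdp2 at 2.08, but Jdp2 was dim and at -0.20 after the correction. Cebpa was well above background on the sevoflurane array only and at least 6.65-fold higher there. Such a bound sets the signal against the higher of the gene's own signal and the lowest signal called well above background on the other array, and it belongs to dim genes; in the dimmest of the 10 level groups the median gene differed by 1.68.

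Amino acid supply was represented by 3 lists. Of the transporter genes 7 of 10 measured were at least 2-fold higher and 0 were lower (median 1.78), and these counts were the same after the loess correction and after quantile normalization. The shares of all measured genes that were higher were 27.9%, 14.0% and 13.6% in the same order. Slc7a11, which imports cystine for glutathione, had signals of 1956 and 298 and was at 3.64. Slc1a5, a glutamine transporter, was at 2.65 (signals 1735 and 526), Slc38a7 at 2.57 and Slc43a1 at 2.50 (1.86 after the correction). Of the 10 transporter genes 9 were above 0, while Slc38a2 was at -0.57 (signals 2863 and 8092). Slc1a4 was well above background on the sevoflurane array only, and at least 3.55-fold higher after scaling. Its signals were dim, at 15.1 and 8.12, and 15.1 lay below the 25th percentile of the sevoflurane array, 16.4. In the dimmest level group the median gene already differed by 1.68 log2 units.

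Among amino acid synthesis genes 4 of 14 measured were higher, a share near the 27.9% of all measured genes, and 0 were lower (median 0.59). After the loess correction and after quantile normalization 4 of 14 were again higher, beside 14.0% and 13.6% of all measured genes. Under median scaling 1 was higher and 5 were lower, beside 10.4% and 43.7%. Cth, which makes cysteine, was at 2.11 (signals 135 and 60.0; 1.55 after the correction). The mitochondrial genes Pck2 and Mthfd2, of phosphoenolpyruvate and of folate metabolism, were at 1.74 and 1.60. Phgdh, which opens the serine pathway, was at 1.16 (0.93 after normexp), while Psat1, the next enzyme of that pathway, was at 0.53 as given above.

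Aminoacyl-tRNA synthetases, which charge tRNAs, had 5 of 19 measured genes past 2-fold, all higher, a share near that of all measured genes, with a median of 0.69. All 19 were above 0 here, after the loess correction and after quantile normalization, where 5936, 4771 and 4559 of 10028 genes were above 0, but only 4 were under median scaling. The highest were Sars1 at 1.52 (signals 1784 and 1184), Yars1 at 1.27, Eprs1 at 1.18 and Kars1 at 1.11.

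Further stress targets of ATF4 and CHOP numbered 10 higher and 1 lower among 19 measured, and their median was 1.01. After the loess correction they numbered 8 and 1. Of all measured genes 27.9% were higher and 11.5% lower, or 14.0% and 17.4% after the correction. Among the 19, 13 were above 0. The secreted stress hormones Fgf21 and Gdf15 were at 3.87 and 3.86, on control signals of only 12.9 and 16.6, and at 2.44 and 2.73 after the correction. Gadd45a, a gene of growth arrest, was at 2.42 (signals 2362 and 842), and Nupr1, a stress-induced chromatin protein gene, at 2.01 (signals 2151 and 1015). Klhl24 was lower, at -1.20 (signals 578 and 2529). Stc2 (signals 29.5 and 6.99) and Pmaip1 (17.2 and 4.95) were well above background on the sevoflurane array only. They were at least 7.78-fold and 4.53-fold higher after scaling. Both were dim, so the limit given for the bound of Cebpa holds here too.

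The other branches of the unfolded protein response do not act through eIF2. Of all measured genes, 27.9% were higher and 11.5% lower, or 14.0% and 17.4% after the loess correction. In the IRE1 and XBP1 arm 2 of 12 measured genes were higher and 0 were lower, and the median was 0.27 (0.01 after the loess correction). Sec61b, of the protein channel of the endoplasmic reticulum, was at 1.60 and the isomerase gene Fkbp14 at 1.09 (0.89 after normexp), while Syvn1, of protein degradation, was at -0.95. Traf2, which encodes an adaptor of IRE1, was at 0.84 (-0.11 after the loess correction). In the ATF6 arm 1 of 13 was higher and 1 lower (2 and 1 after the loess correction), and the median was 0.58. Cryab, a small heat shock protein gene, was at 1.74 and Canx, which encodes the lectin chaperone calnexin, at -1.46 (-0.53 after normexp). Hspa5, the central chaperone BiP, was at 0.87 (signals 12517 and 13067) and Sdf2l1 at 0.93. Mbtps2, a protease that activates ATF6, was well above background on the sevoflurane array only, at least 4.58-fold higher after scaling. Its signals were dim (20.1 and 8.38), so the limit given for the bound of Cebpa holds here too. The difference between the branches was not tested.

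Relatives of the members varied among themselves. Trib2 was lower, at -1.62 (signals 1305 and 7623), opposite to Trib3, and Trib1 was at 1.28 here but at -0.95 after the loess correction, on a control signal of 15.3. Sesn3 was at -0.02, beside Sesn2 at 2.56. Chac2 was at 0.50 (-0.03 after the loess correction and -0.20 after quantile normalization). The glutathione pathway gene Ggct was at 1.80 (0.93 after quantile normalization) and Ggact at 0.39 (-0.04 after quantile normalization). Asnsd1, a relative of Asns, was at -0.06. With 2 arrays the pattern of a gene is a single difference, so no genes are named as alike in pattern.

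**Figure D5:**
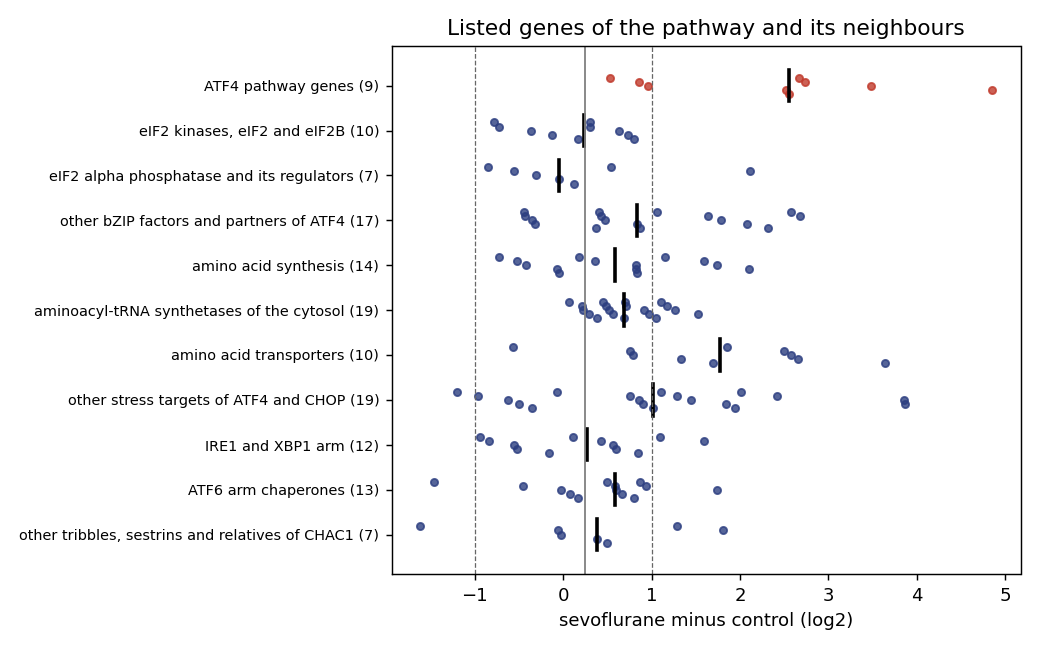
Difference (sevoflurane minus control, log2) of each measured gene in the 9 pathway genes (red) and in 10 lists of related genes (blue), with the number measured in brackets; black bars are medians, the grey line is the median of all measured genes and dashed lines mark 2-fold. Amino acid transporters have a median of 1.78 and eIF2 kinases, eIF2 and eIF2B stay between the dashed lines.

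Facts of the arrays and of cell makeup stand beside these values. Among 24629 usable probes, 4491 stood well above background only under sevoflurane and 396 only in the control, against 16047 on both, and the 75th percentile of the signal was 363 and 692. Scanning took place on separate days for the 2 arrays, and day and treatment cannot be told apart. Neural stem cell markers were present: 13 of 14 had a probe and were measured on both arrays, 3 higher and 3 lower with a median of -0.46. Their summed levels were 105 under sevoflurane and 92.6 in the control (in multiples of the array's 75th percentile), and 31.6 and 53.8 without Vim, the brightest of them. Neuronal markers had 0 of 10 measured genes higher and 6 lower (summed 51.9 and 122), and microglial markers 0 of 11 higher and 8 lower (3.73 and 18.5), with Itgam and Cx3cr1 not well above background on either array. Red blood cell markers were higher in 7 of 7 (142 and 25.7), mesenchymal and pericyte markers in 6 of 10 with 0 lower (119 and 74.5), endothelial markers in 3 of 4 (0.60 and 0.23) and ependymal ones in 3 of 3 (0.55 and 0.14). Astrocyte markers had 2 of 7 higher and 2 lower (11.0 and 14.4), and oligodendrocyte lineage markers 3 of 9 higher and 2 lower (4.45 and 4.10). Without their brightest genes, Gja1 and Pdgfra, these sums were 1.78 and 5.73 for astrocyte and 2.08 and 2.31 for oligodendrocyte lineage markers. In the neuronal, microglial, red blood cell, mesenchymal and pericyte, endothelial and ependymal lists the direction stayed the same without the brightest gene. Beside these counts, 27.9% of all measured genes were higher and 11.5% lower. Those shares were 14.0% and 17.4% after the loess correction, and 13.6% and 19.6% after quantile normalization. After the loess correction, and also after quantile normalization, the counts were 7 of 7 higher for red blood cell markers, 4 of 10 for mesenchymal and pericyte ones, 1 of 4 for endothelial and 1 of 3 for ependymal ones. In both, astrocyte markers had 0 higher and 4 lower, oligodendrocyte lineage markers 1 and 3, neural stem cell markers 2 and 2, neuronal markers 0 and 8 and microglial markers 0 and 9. The part of these shifts in the values of the pathway genes was not tested, and in a bulk sample fewer cells of a type and less RNA per cell cannot be told apart.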

How the data were processed

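Total RNA was labelled with Cy3 and hybridised to 2 1-colour arrays. Agilent Feature Extraction 11.0.1.1, per the submitters' processing notes, wrote the deposited intensity of each spot, linear, background-corrected and unscaled between arrays. The deposited value table was read as log2 intensity from its range, with near-equal quartiles; its scale is inferred, and no source used here states its method. Flags of 0 or 1 per spot are those of the software, per the file headers.

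Control spots and spots flagged as outliers (521 and 580 of 42136) were left out; no spot was saturated. Log2 processed signals were averaged per probe and each array's 75th percentile over probes was subtracted (Python 3.11.15, pandas 2.3.3). A probe was measured when most usable spots were well above background on both arrays. Accessions without versions named 14274 of 15323 RefSeq mRNA probes through the GRCr8 gene table; the array design is of rn4, so no gene coordinates are given. The brightest measured probe stood for a gene. No test was possible with 1 array per group, whose number limits the precision; at least 2-fold was the rule. The software's errors were combined in quadrature. Quantile normalization, cyclic loess (span 0.7, 3 iterations) and normexp (offset 50) used limma 3.58.1 in R 4.3.3. Scaling and the 2-fold rule were tested on simulated data with a shift common to all probes and few changed probes. The simulation held no trend of the difference with level, so it could not test scaling where there is one. The members, lists and motifs were chosen with earlier results of these data known. Named genes are all members, all measured genes of the eIF2, phosphatase and relatives lists, up to 4 genes with the highest absolute difference of each other list, any past 2-fold against its list's majority, and bounds. Slc38a2 was added later, as the measured transporter gene below 0.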

Additional observations from a re-analysis of the deposited data

How the results depend on the processing

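Over 11 alternatives, the count of members at least 2-fold higher was 6 or 7 and the count lower was 0. The additional gene was Atf4, at 1.10 when the percentile was taken over measured probes only and at 1.11 after normexp. Not all alternatives could differ, since each member has 1 probe with 1 unflagged spot. Settings of dim probes, outlier spots, spot averaging and probe choice left the members unchanged or shifted them alike. The deposited values lay close to those after quantile normalization, with Atf4 at 0.40 in both. Atf4, Atf3 and Psat1 changed sign under median scaling only. The median of the 9 genes was 2.56, and it was 1.47 after median scaling, 2.69 with the percentile over measured probes only and 2.35 after normexp. Listed pathway genes at least 2-fold higher numbered 39, but 12 after median scaling. Those at least 2-fold lower numbered 3, but 5 after quantile normalization, 5 in the deposited values and 37 after median scaling. Median scaling shifts all genes alike. The share of all measured genes at least 2-fold higher was 27.9%, but 13.6% after quantile normalization and also in the deposited values, 14.0% after the loess correction, 10.4% after median scaling and 45.9% with dim probes included. Of genes past 2-fold 70.8% were higher, but 41.0% after quantile normalization, 44.5% after the loess correction and 19.2% after median scaling. Normexp was chosen after seeing the data in this form, on the median pixel signal, since the planned mean pixel signal was not used here. No paired analysis was possible because each group has 1 array. Leaving out a replicate was not possible either. Low signal over background limits the dim genes. Jdp2, Trib1, Chac2 and Traf2 were among those that changed sign after the loess correction, to -0.20, -0.95, -0.03 and -0.11.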

Other observations

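Few listed genes had several measured probes, and 2 of them were named after their values were seen. The 5 probes of Vegfa, a growth factor gene that ATF4 can induce, lay between 0.93 and 1.03 (sevoflurane minus control, log2), and the 2 of Sqstm1, an autophagy receptor gene, at 0.86 and 0.96.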
